A study of Mus musculus with 12 samples.

Results

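The 10 genes described here are the enteroendocrine genes Chga, Chgb, Gcg, Pyy, Insl5, Sct, Cck, Sst, Tph1 and Neurog3, chosen by name in the colon table of normalized values. All 10 were found among the 32689 genes of that table, which were drawn from 53801 counted genes. The study sequenced total RNA from the colon and whole blood of 8-week-old male C57BL/6 mice, a wild-type inbred strain, in 12 libraries of which 6 are from colon. By the study's methods, the 3 mice labelled ulcerative colitis (UC, mice 1, 2 and 4) drank 1.5% dextran sulfate sodium (DSS) for 7 days. DSS is a polysaccharide that injures the colon lining. The mice labelled UC were then given regular water and killed on day 8. By the same account, the 3 mice labelled control (mice 7, 8 and 9) were kept for the same time on plain water. Inflammation genes of the colon libraries went against these labels, as given below. The UC and control mice were picked from a larger set of mice by their disease activity index, each colon library comes from 1 mouse, and the colon was profiled whole, without separating its cell types.

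Enteroendocrine cells are scattered hormone-secreting cells of the gut epithelium that sense the gut contents and release peptides or serotonin. They arise from crypt progenitors that transiently make the transcription factor NEUROG3, and they store their products in dense-core granules whose main proteins are the granins. In the colon the best known types are the L cells, which make glucagon-like peptides, peptide YY and insulin-like peptide 5, the enterochromaffin cells, which make serotonin, and the somatostatin-making D cells. Several of the same genes, among them Chga, Chgb, Cck and Sst, are also used by enteric neurons.

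Normalized counts, the deposited counts divided by 1 size factor per library, are compared here between the 6 colon libraries. Their summed counts ran from 69181049 to 103662306 and the size factors from 0.791 to 1.21, and the 3 libraries labelled UC had the 3 highest totals. Inflammation genes went against the disease labels. S100a8, a neutrophil protein, had 5370, 33.1 and 22.3 normalized counts in mice 1, 2 and 4, and 1888, 75.6 and 13337 in mice 7, 8 and 9. Lcn2, which epithelium and neutrophils make in inflammation, had 1248, 96.7 and 99.8 normalized counts in mice 1, 2 and 4, and 1208, 117 and 9155 in mice 7, 8 and 9. For both genes mouse 1 stood far above the other two libraries labelled UC, and mice 7 and 9 far above mouse 8. The groups are therefore called the libraries labelled UC and the libraries labelled control throughout, each gene is given library by library, and no direction below can be read as an effect of DSS. In whole colon, fewer cells of a type and less RNA per cell cannot be told apart.

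**Figure D1:**
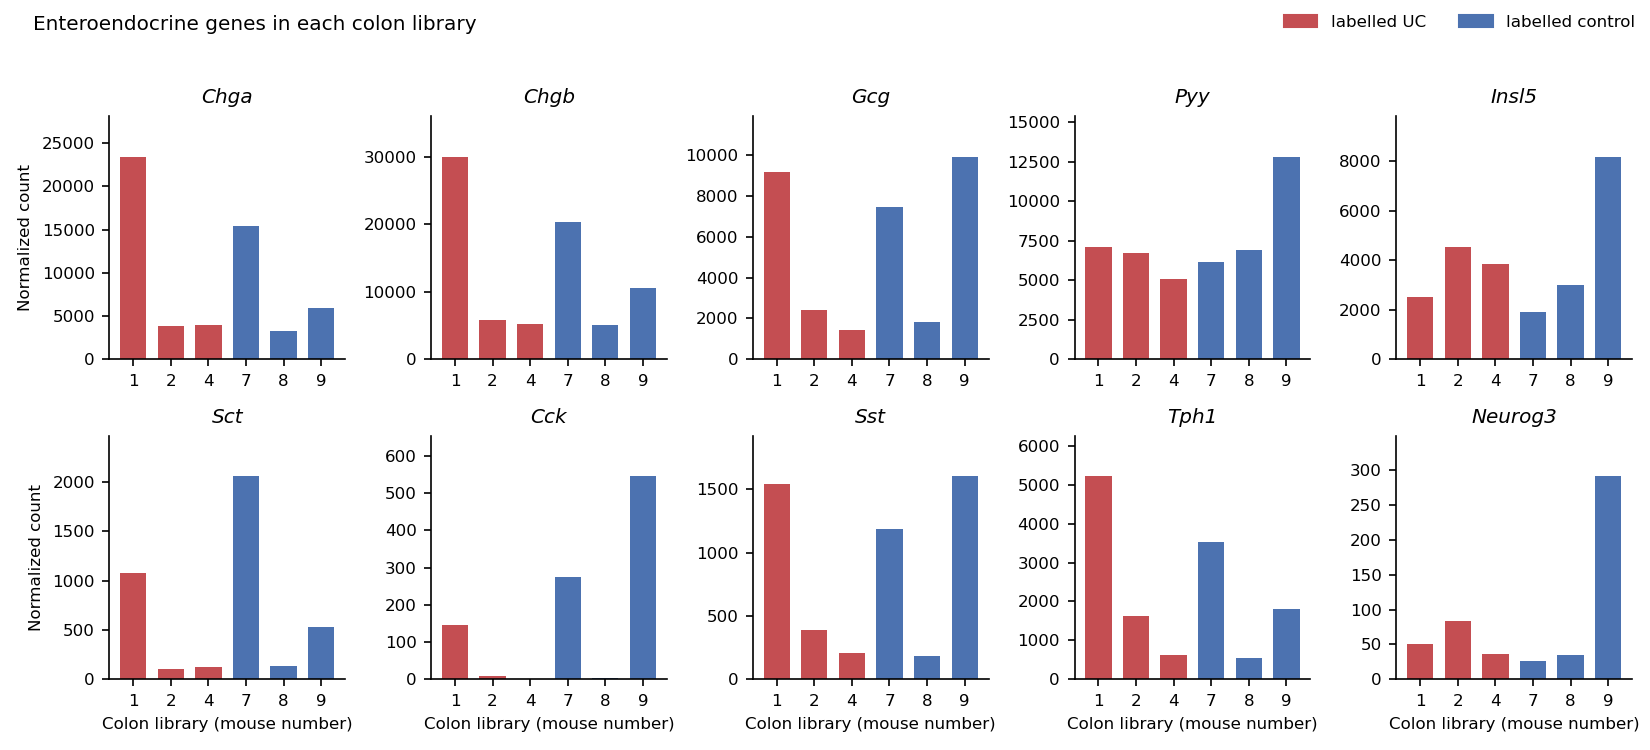
Normalized counts (y axis, linear from 0, own scale per gene) of the 10 enteroendocrine genes in the 6 colon libraries (x axis, mouse number). Red bars are libraries labelled UC and blue bars libraries labelled control, 1 mouse each. For 7 genes the 3 tallest bars are those of mice 1, 7 and 9, as for 18.2% of the 22182 tested genes in the table, while Pyy, Insl5 and Neurog3 show other orders.

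Both granins were highest in mouse 1, then in mice 7 and 9. Chga (ENSMUSG00000021194, chr12:102554969-102565028, GRCm38, plus strand), which encodes chromogranin A, the general marker of enteroendocrine granules, had 23444, 3823 and 3935 normalized counts in mice 1, 2 and 4, and 15467, 3237 and 5924 in mice 7, 8 and 9. Chgb (chr2:132781278-132795079, plus strand), which encodes chromogranin B, had 30079, 5753 and 5167 normalized counts in mice 1, 2 and 4, and 20333, 5041 and 10618 in mice 7, 8 and 9. In both genes mice 1, 7 and 9 held the 3 highest values and mouse 8 the lowest, so the labelled groups overlapped. The step between the third- and fourth-highest library was 1.51-fold for Chga and 1.85-fold for Chgb. Their means were 10401 ± 11296 (SD, n = 3) against 8209 ± 6427 for Chga and 13666 ± 14217 against 11997 ± 7739 for Chgb, libraries labelled UC against control. The ratio of Chgb to Chga normalized counts, uncorrected for length, stayed between 1.28 and 1.79 in the 6 libraries while Chga itself spanned 7.24-fold.

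The 3 L cell peptides did not share an order of libraries. Gcg (chr2:62474530-62483650, minus strand), the precursor of the glucagon-like peptides, had 9170, 2430 and 1431 normalized counts in mice 1, 2 and 4, and 7470, 1800 and 9925 in mice 7, 8 and 9. Mice 1, 7 and 9 were again the 3 highest, and the step down to the fourth library was 3.07-fold. Pyy (chr11:102106676-102107832, minus strand), whose peptide slows gut transit and curbs appetite, had 7133, 6707 and 5110 normalized counts in mice 1, 2 and 4, and 6167, 6915 and 12834 in mice 7, 8 and 9. It varied least of the 10 genes, 2.51-fold from lowest to highest, and 5 of its 6 values lay between 5110 and 7133. Insl5 (chr4:103017872-103026842, minus strand), a relaxin-family peptide of colonic and rectal L cells, had 2514, 4553 and 3841 normalized counts in mice 1, 2 and 4, and 1931, 2991 and 8198 in mice 7, 8 and 9. Here mice 1 and 7 were the 2 lowest libraries and mouse 9 the highest. The ratio of Insl5 to Gcg normalized counts, uncorrected for length, was accordingly 0.274 and 0.259 in mice 1 and 7, 0.826 in mouse 9, and 1.87, 2.68 and 1.66 in mice 2, 4 and 8. The ratio of Pyy to Gcg ran the same way, from 0.778 in mouse 1 to 3.84 in mouse 8.

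Among the other peptide hormones, Sct, Cck and Sst all had their 3 highest values in mice 1, 7 and 9. Sct (chr7:141278330-141279133, minus strand), the secretin precursor, had 1077, 98.4 and 123 normalized counts in mice 1, 2 and 4, and 2059, 129 and 525 in mice 7, 8 and 9. The values in mice 2, 4 and 8 lay within 98.4 to 129, and the lowest of the other libraries was 4.09-fold above the highest of these. Cck (chr9:121489824-121495694, minus strand), cholecystokinin, which is mainly a product of the small intestine and of neurons, had 147, 7.84 and 0 normalized counts in mice 1, 2 and 4, and 274, 3.78 and 545 in mice 7, 8 and 9. It was therefore near the detection limit in mice 2, 4 and 8 and 18.7-fold higher in the lowest of the others than in mouse 2. Sst (chr16:23889573-23890958, minus strand), the inhibitory hormone of D cells, had 1544, 385 and 209 normalized counts in mice 1, 2 and 4, and 1187, 185 and 1603 in mice 7, 8 and 9. Sst kept close to Gcg. The ratio of the 2 genes' normalized counts was 0.103 in mouse 8 and between 0.146 and 0.168 in the other libraries, while Sst spanned 8.65-fold.

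Tph1 (chr7:46644641-46672537, minus strand), the rate-limiting enzyme of serotonin synthesis outside neurons, had 5224, 1628 and 613 normalized counts in mice 1, 2 and 4, and 3524, 556 and 1799 in mice 7, 8 and 9. Mice 1, 7 and 9 were the 3 highest, but mouse 2 was close behind mouse 9, a step of 1.10-fold. Tph1 is also used by mast cells. Of 9 mast cell markers summing to between 3077 and 6210 normalized counts, Kit made up a large share of the sum (1630 to 5939), and Tpsab1, a mast cell tryptase, was at 0 in 4 libraries and at most 2.61. Of the 7 markers with a mean of at least 10, only the proteases Mcpt1 and Mcpt2 were highest in mice 1, 7 and 9 like Tph1. Their highest value was in mouse 9. The protease Cma1 was highest in mice 2, 4 and 8, and Cpa3, Tpsb2, Mcpt4 and Kit had other sets. Mcpt1 had 37.9, 13.9 and 30.5 normalized counts in mice 1, 2 and 4 and 179.6, 3.78 and 958 in mice 7, 8 and 9, and Mcpt2 97.6, 8.71 and 36.3 against 147, 7.56 and 696. The part of mast cells in the Tph1 values was not tested. Neurog3 (chr10:62133090-62134763, plus strand), the fate factor of enteroendocrine progenitors, had 51.1, 83.6 and 35.5 normalized counts in mice 1, 2 and 4, and 25.3, 35.3 and 292 in mice 7, 8 and 9. Mouse 9 stood far above the next library, mouse 2, and mouse 7 was lowest. Neurog3 shares 273 exon bases with Fam241b on the other strand, and the quantification set no strand, so its count is uncertain. Fam241b itself had between 556 and 1168 normalized counts, with 700.1 in mouse 9. How reads in the shared bases were assigned to the 2 genes was not tested.

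The windows just upstream of the RefSeq starts were read because 7 members shared their 3 highest libraries. Of 9 short motifs searched on both strands, after the values had been seen, the core of the cAMP response element, TGACG, lay within 100 bases upstream of 5 of the 10 genes, Chga, Chgb, Cck, Sst and Tph1, against 10.5% of all 32851 mouse promoter windows. The whole palindrome TGACGTCA, which holds the core on each strand, lay there in Chgb and Sst, against 1.15% of all windows. It begins 72 bases upstream of the start in Chgb and 48 in Sst. All 5 carriers of the core are among the 7 of 10 genes with their 3 highest values in mice 1, 7 and 9. The other 2 of these 7 are Gcg and Sct. The windows were read because of that set, so this overlap is not a test. The TATAA motif lay within the same distance in Gcg, Insl5, Pyy, Sct and Tph1, against 10.2% of all windows. Of the other 6 motifs, CAGATG lay there in 2 members (5.62% of all windows), CAGGTG in 1 (7.03%), CACGTG in 1 (3.17%) and GGGCGG in 4 (24.7%), while CAGCTG (5.81%) and TAATTA (1.61%) lay there in none. The 10 genes had 13 windows, since some have several starts, and a gene counted once. A match is a description of letters and not a site of binding. The 6 windows with the core are shown, 2 of them for separate Tph1 starts, with the core or palindrome in capitals (CGTCA where it reads on the other strand), 5′ to 3′ on the gene's strand, GRCm38.p6:
Chga (chr12:102554841-102554940, plus strand): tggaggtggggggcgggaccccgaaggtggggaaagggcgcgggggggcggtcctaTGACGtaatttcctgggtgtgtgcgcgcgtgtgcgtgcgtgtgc
Chgb (chr2:132781542-132781641, plus strand): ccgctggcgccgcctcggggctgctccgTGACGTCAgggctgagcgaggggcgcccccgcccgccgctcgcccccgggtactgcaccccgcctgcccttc
Cck (chr9:121495695-121495794, minus strand): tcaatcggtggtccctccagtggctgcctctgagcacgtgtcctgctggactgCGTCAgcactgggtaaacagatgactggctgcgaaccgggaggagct
Sst (chr16:23890845-23890944, minus strand): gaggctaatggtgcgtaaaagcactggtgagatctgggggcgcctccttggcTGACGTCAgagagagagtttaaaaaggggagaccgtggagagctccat
Tph1 (chr7:46672538-46672637, minus strand): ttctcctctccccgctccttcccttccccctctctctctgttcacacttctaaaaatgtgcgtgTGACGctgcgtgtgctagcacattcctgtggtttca
Tph1 (chr7:46667378-46667477, minus strand): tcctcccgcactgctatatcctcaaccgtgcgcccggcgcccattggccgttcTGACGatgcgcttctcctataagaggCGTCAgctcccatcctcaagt

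Taken per kilobase of annotated exon, the level of Pyy was highest, with a median over the 6 libraries of 10794 normalized counts per kb. Insl5 followed at 4719, Gcg at 3313, Chgb at 2987, Chga at 1789, Sst at 1090, Sct at 507, Tph1 at 278, Cck at 59.3 and Neurog3 at 25.9. The ranges of neighbours in this order overlapped. The summed level of the 10 genes per kb was 45200, 23037 and 18276 in mice 1, 2 and 4, and 36109, 19879 and 48251 in mice 7, 8 and 9. Its make-up split the libraries differently from its size. The L cell peptides made up 46.3% and 48.3% of it in mice 1 and 7, but 78.6% to 82.0% in the others, mouse 9 included. The granins made up 43.1% and 36.1% in mice 1 and 7, and 12.5% to 18.1% elsewhere. Insl5 alone was 7.68% and 7.39% in mice 1 and 7 and at least 20.8% in the other 4 libraries. Pyy was 25.0% and 27.1% in mice 1 and 7 and at least 42.2% elsewhere. Gcg, the remaining L cell peptide, did not follow the summed share. It made up 13.6%, 13.8% and 13.8% in mice 1, 7 and 9, and 7.06%, 5.24% and 6.06% in mice 2, 4 and 8.

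**Figure D2:**
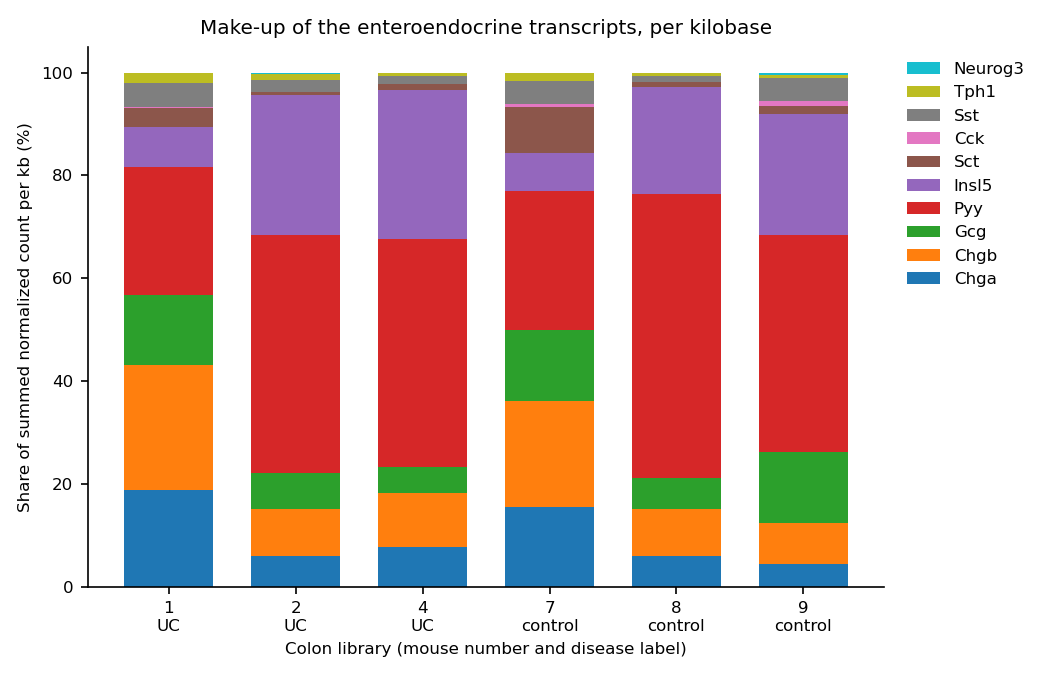
Share of the summed normalized count per kb (y axis, percent) that each of the 10 genes took in each colon library (x axis, mouse number and disease label). Granins reach 43.1% in mouse 1 and 36.1% in mouse 7, against 12.5% in mouse 9, where Pyy and Insl5 fill most of the bar.

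Counting libraries rather than labels, 7 of the 10 genes had their 3 highest normalized counts in mice 1, 7 and 9. Of the 22182 tested genes in the table, 18.2% had that set. Pyy was highest in mice 1, 8 and 9 (1.26% of genes), Insl5 in mice 2, 4 and 9 (6.71%) and Neurog3 in mice 1, 2 and 9 (4.16%). Scaled to the summed counts of 8 pan-epithelial genes in place of the size factor, the same 7 genes kept mice 1, 7 and 9, and Pyy moved to mice 1, 2 and 9. These shares describe which libraries were high and carry no test.

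The labelled comparison asked whether the members differed between libraries labelled UC and labelled control. None passed the test. In edgeR's quasi-likelihood test over 22238 genes, 0 of the 10 members were significantly differentially expressed (SDE, adjusted p of at most 0.05 and |log2FC| over 1), and 0 had an unadjusted p under 0.05. Over all genes 1 was SDE, 0.0045%, and 313 had an unadjusted p under 0.05. DESeq2 and limma-voom also called 0 members. The labelled groups overlapped in all 10 genes, and 5.66% of the 22182 ranked genes had groups that did not overlap. The log2FC, labelled UC minus control, was below 0 for 7 members and above 0 for 3, with a median of -0.47 against -0.01 for all genes tested. The adjusted p was 1.00 for every member by edgeR.

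The log2FC lay within 1 SE of 0 for 7 members. Pyy, the least variable gene, had a log2FC of -0.46 (SE 0.309), with means of 6317 ± 1067 against 8639 ± 3652 normalized counts (SD, n = 3 each). Cck had the largest value, -2.42 (SE 1.99), and Sct and Neurog3 followed at -1.08 (SE 1.25) and -1.05 (SE 0.969). Gcg was at -0.56 (SE 0.839), Sst at -0.48 (SE 0.956) and Insl5 at -0.27 (SE 0.538). The 3 values above 0 were Chga at 0.33 (SE 0.884), Tph1 at 0.33 (SE 0.897) and Chgb at 0.17 (SE 0.814). An exact permutation test of the normalized counts, two-sided, gave p from 0.3 to 1 for the 10 genes, where 3 libraries against 3 cannot go below 0.1. These tests do not show that the groups are alike, and the libraries that were high in most members, mice 1, 7 and 9, fall on both sides of the labels. The members' median log2FC, -0.47 with all libraries, was -1.12 without mouse 1, -0.78 without mouse 8 and 0.05 without mouse 9, and stayed between -0.37 and -0.23 without mouse 2, 4 or 7. It was 1.55 without mice 7 and 9, which leaves 1 library labelled control, and 0.37 without mice 2 and 4, which leaves 1 labelled UC. Without mouse 1, Cck was at -6.10 and Gcg at -1.73.

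**Figure D3:**
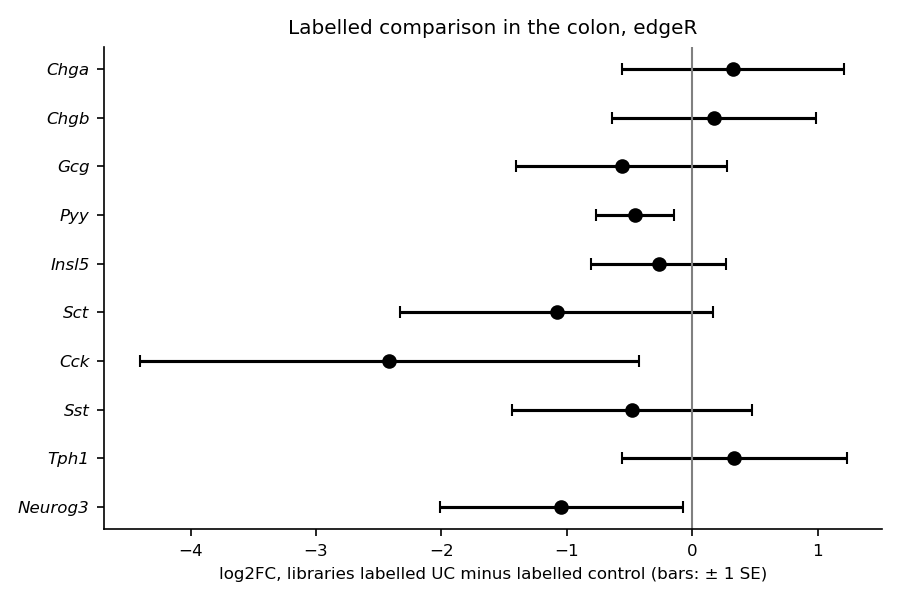
log2FC of the 10 genes between colon libraries labelled UC and labelled control (x axis, labelled UC minus control), from edgeR with 3 libraries per group. Points are estimates and bars ± 1 SE; the bars of Pyy, Cck and Neurog3 stop short of 0, and no gene passed the test.

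Other genes of the pathway were followed in 5 lists of 76 genes, of which 74 were in the colon table and 68 were tested. None was SDE by edgeR and 0 had an unadjusted p under 0.05. Of 18 genes for granules and prohormone processing, 13 had mice 1, 7 and 9 highest, as did most members, beside 18.2% of ranked genes. They included Pcsk1, a prohormone convertase, with 3806, 934 and 1103 normalized counts in mice 1, 2 and 4, and 2633, 732 and 1532 in mice 7, 8 and 9, and Slc18a1, a vesicular monoamine transporter, with 1529, 347 and 441 against 957, 484 and 498. Ddc, the decarboxylase that finishes serotonin synthesis, ran the other way, with 2767, 10290 and 7657 normalized counts in mice 1, 2 and 4 and 2069, 7686 and 2887 in mice 7, 8 and 9. Ddc was thus highest in mice 2, 4 and 8, the 3 libraries with the least Tph1. Pam, which amidates peptides, had 17537, 26580 and 29344 normalized counts in mice 1, 2 and 4 and 15566, 26087 and 29475 in mice 7, 8 and 9, lowest in mice 1 and 7. Cpe, a carboxypeptidase that trims prohormones, had 9399.7, 5933 and 5002 against 8702, 4272 and 9480, and Ptprn2, a dense-core vesicle protein, 5888, 1873 and 1571 against 4215, 1359 and 1918.

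Of 16 enteroendocrine transcription factors with a mean of at least 10, 5 had their 3 highest values in mice 1, 7 and 9, beside 18.2% of all ranked genes. Neurod1, which follows NEUROG3, had 416, 212 and 133 normalized counts in mice 1, 2 and 4, and 219, 146 and 266 in mice 7, 8 and 9. Mouse 9, so high in Neurog3, was not the highest in Neurod1. Atoh1, which opens the secretory lineage, had 4563, 3179 and 3432 normalized counts in mice 1, 2 and 4 and 2604, 3266 and 1501 in mice 7, 8 and 9, lowest in mouse 9. Rfx3 spanned 892 to 1414, Etv1 381 to 726 and Prox1 310.1 to 776.

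Of 6 other gut hormones with a mean of at least 10, 5 had mice 1, 7 and 9 highest, beside 18.2% of ranked genes. The sizes of their values differed. Nts, neurotensin, had 2585, 0 and 2.47 normalized counts in mice 1, 2 and 4, and 1534, 0 and 48.6 in mice 7, 8 and 9. Iapp, the amylin gene, had 1385, 14.8 and 5.77 against 537, 11.3 and 32.4. For both genes mice 1 and 7, the libraries with the smallest Insl5 share, were far above mouse 9. Vip and Tac1, which enteric neurons make, were instead highest in mouse 9, with 12668 and 8359 normalized counts. Gal, galanin, had 759.6, 52.3 and 154 normalized counts in mice 1, 2 and 4, and 419.8, 27.7 and 963 in mice 7, 8 and 9. Gip and Gast had 0 counts in all 6 colon libraries.

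The receptors and the serotonin transporter did not share 1 order. The fatty acid receptor Ffar4 had 2946, 788 and 779 normalized counts in mice 1, 2 and 4, and 2762, 805 and 987 in mice 7, 8 and 9. Of the 14 nutrient and stimulus receptors, 9 were highest in mice 1, 7 and 9, beside 18.2% of ranked genes. Ffar2, a short-chain fatty acid receptor, had 828, 217 and 158 against 559, 92.01 and 526. Piezo2, a mechanosensitive channel, spanned 1245 to 1758, and Olfr78 396 to 1565 with its highest value in mouse 2. Slc6a4, the serotonin uptake transporter, had 350, 1975 and 3918 normalized counts in mice 1, 2 and 4, and 258, 3446 and 558 in mice 7, 8 and 9. It was lowest in the 3 libraries where Tph1 was highest. The serotonin receptor Htr4 had 657, 3890 and 3393 against 398, 3316 and 1145, and Npy1r, a receptor for peptide YY, 261, 1034 and 1034 against 150.5, 1302 and 312. Slc6a4, Htr4, Npy1r and Glp2r were all highest in mice 2, 4 and 8, Glp2r, the receptor of glucagon-like peptide 2, with 455 to 1147 normalized counts, and 14.7% of ranked genes had that set. More of the 16 hormone receptor and serotonin uptake genes, 7, were highest in mice 1, 7 and 9, beside 18.2% of ranked genes. These were Glp1r, Gcgr, Cckar, Sstr2, Sstr4, Htr3a and Htr7. Htr3a, a serotonin-gated channel, had 579.7, 335 and 339.8 normalized counts in mice 1, 2 and 4, and 756, 210.5 and 1329.9 in mice 7, 8 and 9.

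**Figure D4:**
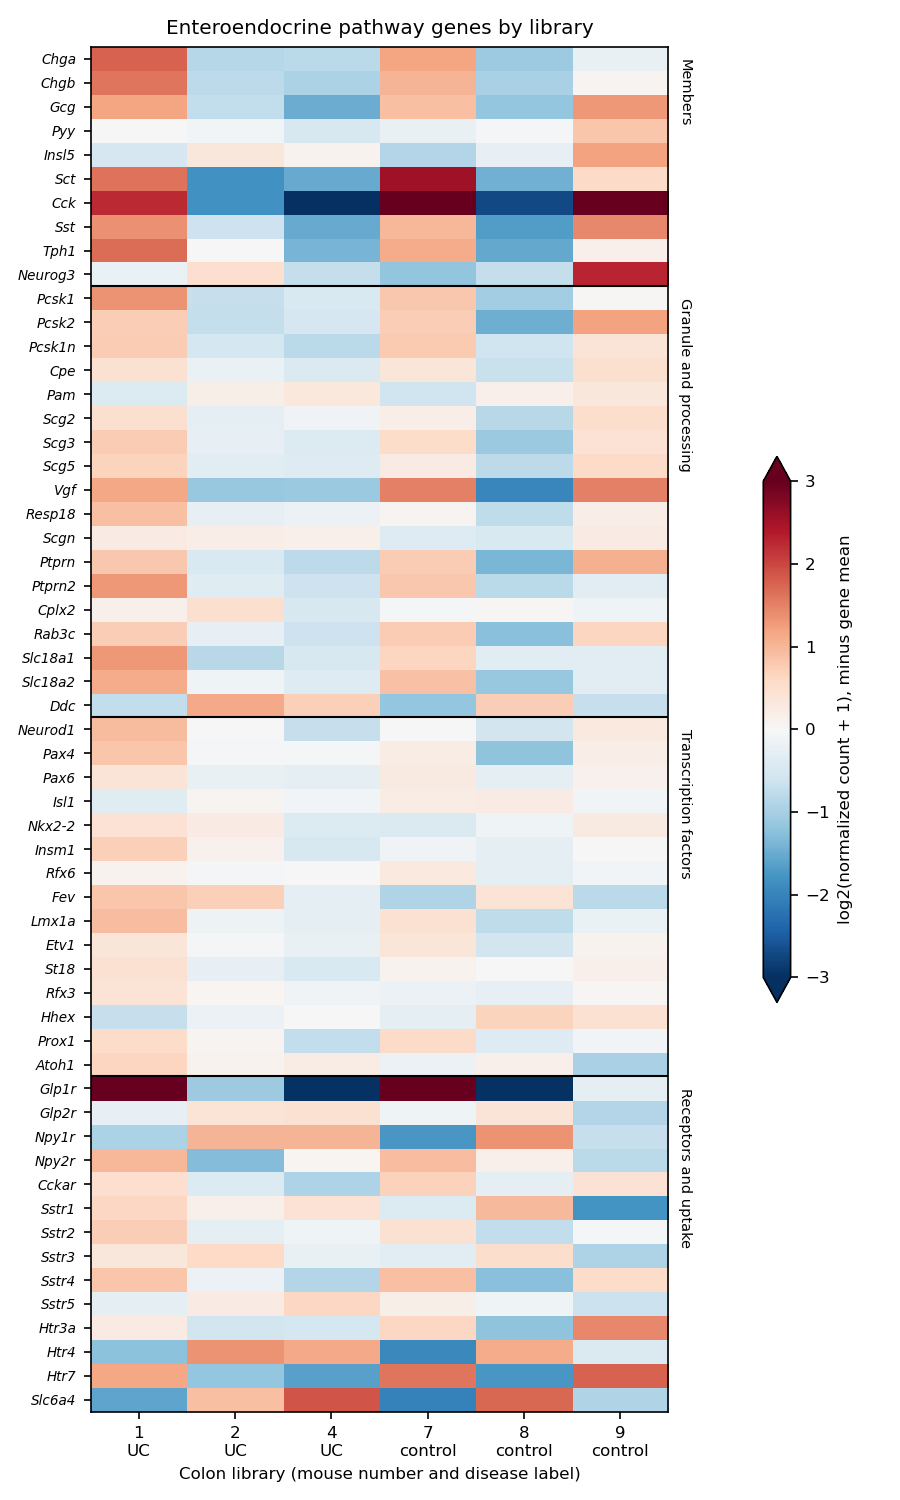
Colour gives log2(normalized count + 1) minus the gene's mean over the 6 colon libraries, for the members and for granule, transcription factor and receptor genes with a mean of at least 20 (rows; columns are mice with their disease labels). Mice 1, 7 and 9 hold the 3 highest values of 7 members and 13 granule genes, as for 18.2% of ranked genes. Ddc, Htr4, Npy1r and Slc6a4 are blue in these 3 mice.

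Some marker lists of other cells and of gut position split the libraries in the same way, and others did not. Goblet cell sums were highest in mice 1, 4 and 7, and smooth muscle sums in mice 2, 4 and 7. Absorptive colonocyte sums were highest in mice 1, 7 and 8, and pan-epithelial sums in mice 4, 7 and 8. Mice 1, 7 and 9 were highest for 18.2% of ranked genes. All 9 neutrophil and inflammation genes had mice 1, 7 and 9 highest, and their normalized counts summed to 34533, 388 and 381 in mice 1, 2 and 4 and 26728, 556 and 134703 in mice 7, 8 and 9. All 10 enteric neuron genes had the same set, and their sum was 14567, 5964 and 5901 against 13511, 3447 and 17496. Of 5 glial markers, 3 had that set. The neurons' part in the values of Chga, Chgb, Cck and Sst was not tested. The summed count of 8 pan-epithelial genes spanned 695594 to 1012540, and the 7 genes that were high in mice 1, 7 and 9 stayed so when scaled to it. Krt8 and Krt19 had the highest means of the 8, at 386953 and 192484. Cdx2, also of the 8, was itself highest in mice 1, 7 and 9, with 12701, 11069 and 3808 normalized counts. It had 1411, 1216 and 1228 in mice 2, 4 and 8. The part of epithelial content in the members' values was not tested.

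Posterior Hox genes, which mark the distal gut, ran in the opposite direction. Their summed normalized count over 7 genes was 4555 and 5923 in mice 1 and 7, 18567 in mouse 9, and 42043, 47423 and 48982 in mice 2, 4 and 8, and 6 of the 7 were highest in mice 2, 4 and 8. The libraries with the lowest Insl5 share, mice 1 and 7, were also those with the lowest Hox sum. Of 7 small intestine markers, Fabp2, a fatty acid binding protein, had 12105 and 21076 normalized counts in mice 1 and 7, against 350.4 to 710.2 in the other 4, and Sis, sucrase-isomaltase, 1279 and 346 against at most 18.3. Fabp6 had 190.4 and 399.6 against 123 to 180.3. Lct was between 5.40 and 29.0 and highest in mouse 8, and Apoa4, Apoc3 and Defa24 were at 0 in mouse 7 and at most 21.4 elsewhere. Intestinal stem cell genes summed to 2854, 7845 and 5762 in mice 1, 2 and 4 and 2299, 6783 and 3498 in mice 7, 8 and 9. The part of gut position in the members' values was not tested. Pancreatic islets also make Gcg and Sst, and of 4 beta cell genes Ins1 and Ins2 had 0 counts in all 6 colon libraries, Mafa had 4.95 to 28.4 normalized counts, and G6pc2 reached 45.3 and 51.1 in mice 2 and 4. The 9 acinar genes summed to 173 to 1025 normalized counts, most of it Clps (119.7 to 765), highest in mice 2, 4 and 8. The part of pancreatic cells in the Gcg and Sst values was not tested. In the libraries labelled colon, 8 absorptive colonocyte genes summed to between 211735 and 1027220 normalized counts. Blood values were not set beside these sums, so they do not test the tissue label.

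**Figure D5:**
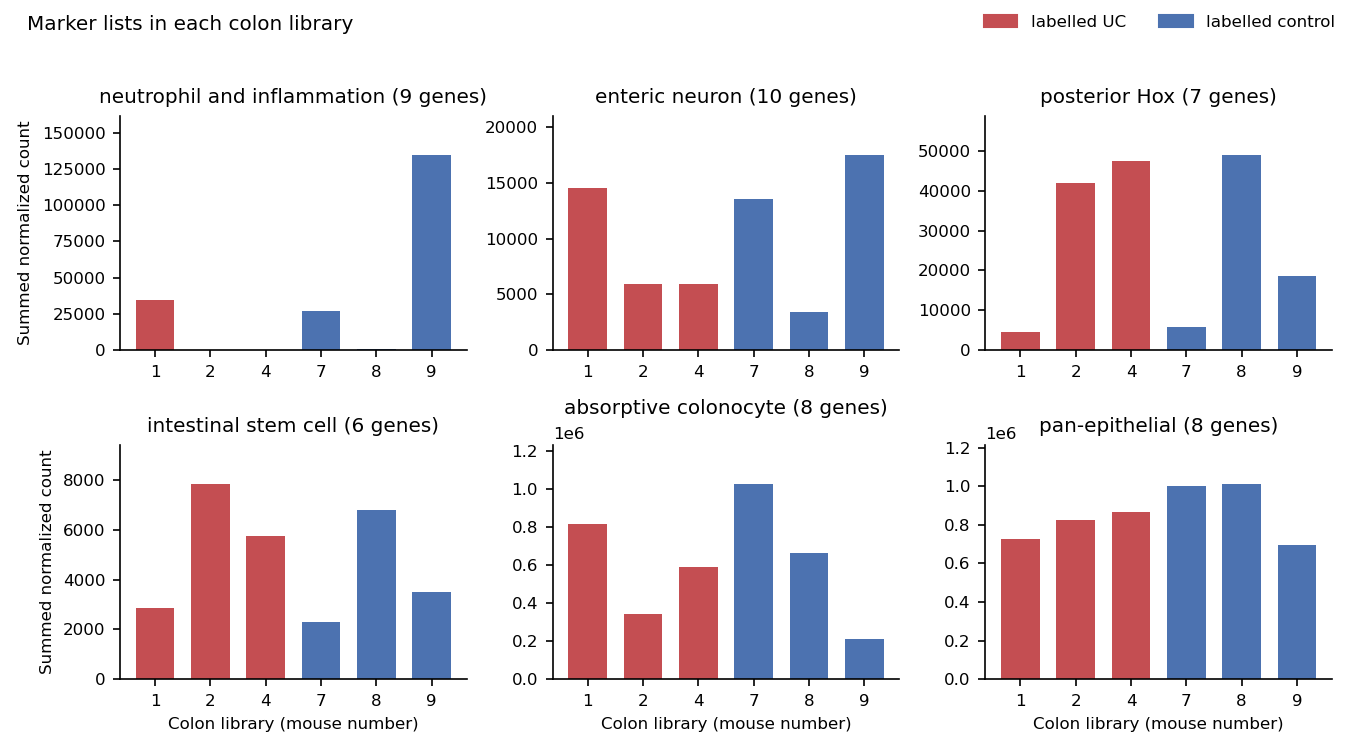
Summed normalized counts (y axes, linear from 0, own scale per list) of 6 marker lists in the 6 colon libraries (x axis, mouse number; red labelled UC, blue labelled control). Neutrophil and enteric neuron sums peak in mice 1, 7 and 9, and the posterior Hox and stem cell sums in mice 2, 4 and 8.

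Over 17717 genes with a mean of at least 50 normalized counts, genes among the 5 nearest to the members' mean profile, by the root mean square difference of centred log2(normalized count + 1) over the 6 libraries, were Nnmt (0.138), Fut2 (0.162), Gpx3 (0.176) and H6pd (0.203). That profile averages all 10 members, so each member is measured against a mean that includes itself. Cck, with few counts, has the widest centred values in it, from -4.97 in mouse 4 to 4.13 in mouse 9. Of the members, Gcg lay nearest to that profile at 0.102 and Sst next at 0.275, and Insl5 (1.25), Neurog3 (1.21) and Cck (2.31) lay farthest.

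In whole blood the members were almost undetected. Of the 10 genes, 8 had 0 counts in all 6 libraries. Insl5 had at most 8 counts, in 1 library, and Neurog3 at most 3, in 1 library.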

How the data were processed

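Total RNA from colon and whole blood was sequenced from 3 mice labelled UC and 3 labelled control. Per the study's methods, ribosomal RNA was depleted, reads were trimmed, mapped to GRCm38 with STAR and quantified with StringTie 1.3.4c on Ensembl annotation, with no strand set. The deposited counts are whole numbers the authors derived from transcript coverage. The deposited normalized values, a signal scale made by the authors, are counts divided by 1 size factor per library, the same factor for 100% of genes.

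Tissue and disease came from the characteristics labels and mice from the titles. The 6 colon libraries were compared with edgeR 4.0.16 in R 4.3.3 (TMM, quasi-likelihood, Benjamini-Hochberg), with low counts removed by filterByExpr. The biological coefficient of variation was 0.503. SDE meant adjusted p of at most 0.05 and |log2FC| over 1. DESeq2 1.42.0 and limma 3.58.1 were alternatives, with other scalings, filters and left-out mice. The edgeR step was also run on simulated counts, and the outcome of that run is not given here. Positions and exon lengths for levels per kb came from a GENCODE annotation of GRCm38, not the release the authors used. Replicates are separate mice. In sets of 3 highest libraries, 0 of 22182 genes were tied at the third place. Promoter windows are RefSeq, GRCm38.p6. The members and lists were chosen with earlier results of these data known. Named pathway genes were the 4 with the highest mean in each list, and Pcsk1, Slc18a1, Neurod1, Iapp, Htr3a and the other receptors beside it were chosen after their values were seen, as were single genes named from the marker lists. The source name gives the opposite tissue in each sample and was not used. A few genes that these rules would name are not reported here.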

Additional observations from a re-analysis of the deposited data

How the results depend on the processing

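No paired analysis was possible because the labelled groups hold different mice and share no mouse number. Of 170 log2FC values recomputed for the members, 150 kept their sign, whatever the size of the change, and 20 reversed. No member was SDE under any alternative run. The number of SDE genes over the whole table was 1 by edgeR, 6 by DESeq2 and 0 by limma-voom, 0 to 0 with each mouse left out, 0 without mice 7 and 9, and 0 without mice 2 and 4. The last 2 settings were chosen after seeing the data, and each leaves 1 library in a group (mouse 8 labelled control, then mouse 1 labelled UC), which is assumed to vary like the other group.

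With 1 mouse left out, log2FC (labelled UC minus control) ran from -1.10 to 1.18 for Chga, -1.15 to 0.80 for Chgb, -0.62 to 0.54 for Insl5, -1.52 to 0.88 for Neurog3, -3.04 to 0.40 for Sct, -1.74 to 0.020 for Sst, -0.81 to 1.08 for Tph1, -6.10 to -1.47 for Cck and -1.73 to -0.13 for Gcg. Signs turned without mouse 1 or 8 for Chga, Chgb and Tph1, without mouse 7 for Sct, and without mouse 9 for Insl5, Neurog3 and Sst. By limma-voom Chgb was at -0.11. Without mice 7 and 9, Cck was at 3.71, Gcg 1.26, Insl5 0.28, Neurog3 0.68, Sct 1.74 and Sst 1.93. Without mice 2 and 4, Gcg was at 0.51, Sct 0.22 and Sst 0.62. Pyy stayed below 0 throughout, from -0.65 to -0.07. The members' adjusted p over all alternatives ran from 0.677 to 1. Scaling to pan-epithelial counts moved the median log2FC of all genes to 0.14 and the members' to -0.39. Without mouse 1, 2 members had an unadjusted p under 0.05 by edgeR, beside 795 of all 22754 genes tested. The members' lowest adjusted p by edgeR in that run was 0.971. Cck, at most 7.84 normalized counts in 3 libraries, and Neurog3, at most 83.6 in 5, rest on few counts.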
